A study of Homo sapiens with 4 samples.

Results

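The CELF family comprises 6 genes, CELF1 to CELF6, and all 6 were found by symbol among the 28307 gene symbols listed for human neurons made from induced pluripotent stem cells. Each was listed in 1 row, so no summing over rows was involved. The groups were CRISPRi neurons (2 libraries), which received lentiviral guide RNAs (2 independent guides per element) against a MIR transposable element on chromosome 11, and control neurons (2 libraries), which received the empty guide vector. Neurons of both groups were i3N-WTC11 excitatory neurons, from a single human stem cell line, and per the labels' protocols carried dCas9-KRAB, an inactive Cas9 joined to a repressor domain, under the CAG promoter in an intron of CLYBL. Virus (multiplicity of infection about 3) was added after 2 weeks of differentiation, puromycin (0.5 μg/mL) was given for 4 days, and polyA RNA was taken 7 days after the virus and sequenced as 75 bp read pairs. The labels do not tie guides to libraries. The labels call the 2 replicates biologically independent.

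CELF proteins (CUGBP and ELAV-like family) bind GU-rich stretches of RNA through RNA recognition motifs. In the nucleus they steer the choice of alternative exons, and in the cytoplasm they affect the stability and translation of messenger RNAs. CELF1 and CELF2 are made in many tissues, whereas CELF3, CELF4, CELF5 and CELF6 are found mainly in the nervous system. CELF1 is best known from myotonic dystrophy, where its activity rises while that of the MBNL splicing factors is lost, and its gene lies in a region associated with Alzheimer disease.

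CELF1 is the member that lies near the targeted element. Its row runs on the minus strand of chromosome 11 from 47465937 to 47565539 (hg38), so that the element lies upstream of its start. The series' title and design text give the element as 2 different intervals, which begin 39757 bp and 42497 bp beyond the CELF1 start. The other members lie elsewhere, CELF2 on chromosome 10, CELF3 on chromosome 1, CELF4 on chromosome 18, CELF5 on chromosome 19 and CELF6 on chromosome 15. They carry related protein-coding sequence without the targeted element nearby, and served as the comparison for CELF1 within each library.

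The starts of CELF1 that lie closest to the element are shown because they are the annotated points at which its transcription begins. RefSeq (GRCh38.p14) lists 5 CELF1 start windows, each covering 250 bases before to 50 bases after the start. The first 2, on the minus strand at chr11:47565490-47565789 and chr11:47553083-47553382, are printed 5′ to 3′ with each CG dinucleotide in capitals.
CELF1 start 1: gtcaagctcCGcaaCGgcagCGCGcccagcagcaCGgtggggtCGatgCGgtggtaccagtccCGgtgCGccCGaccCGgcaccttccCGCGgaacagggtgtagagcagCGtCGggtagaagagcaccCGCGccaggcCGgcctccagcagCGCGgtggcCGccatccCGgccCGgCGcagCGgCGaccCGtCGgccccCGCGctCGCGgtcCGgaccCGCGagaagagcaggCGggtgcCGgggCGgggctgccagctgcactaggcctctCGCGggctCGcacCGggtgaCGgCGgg
CELF1 start 2: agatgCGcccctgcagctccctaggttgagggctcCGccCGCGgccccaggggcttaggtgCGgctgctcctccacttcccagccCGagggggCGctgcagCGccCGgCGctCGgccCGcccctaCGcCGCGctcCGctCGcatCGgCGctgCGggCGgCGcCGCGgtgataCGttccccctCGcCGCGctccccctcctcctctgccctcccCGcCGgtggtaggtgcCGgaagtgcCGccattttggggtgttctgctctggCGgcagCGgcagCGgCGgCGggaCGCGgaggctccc
These windows hold 44 and 39 CG dinucleotides, counts reached by 4.19% and 8.71% of the 35116 RefSeq windows of this length, whose median is 14. The other 3 CELF1 windows, whose starts lie 80592 to 110775 bp from the first interval, hold 1 or 2. Among the paralogs the single window of CELF5 holds 49 and those of CELF3 and CELF4 hold 9 and 11. CELF2 has 10 windows with 5 to 54, and CELF6 has windows with 29 and 3. The counts do not separate reads by start, so the starts used in these neurons were not determined.

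Full-length reads within transcripts of the 6 genes can be told apart by sequence. Between the longest complete coding sequences of GENCODE release 29, identity over aligned bases was 74.4% for CELF1 and CELF2, and 72.8% to 77.5% among CELF3, CELF4, CELF5 and CELF6. Between these subfamilies it was lower, from 63.3% to 66.3%. No stretch of 75 bases, the read length, was shared between transcripts of any pair of the 6 genes. The longest run shared by a pair was the 47 bases of CELF4 and CELF5, from the last RNA recognition motif. It is printed with the matching stretch of the other members, with bases that differ from CELF4 in capitals, to show how far the family can be resolved.
CELF1: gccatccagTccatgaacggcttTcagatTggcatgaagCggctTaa
CELF2: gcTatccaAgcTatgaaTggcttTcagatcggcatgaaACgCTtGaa
CELF3: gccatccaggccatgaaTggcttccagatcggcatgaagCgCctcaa
CELF4: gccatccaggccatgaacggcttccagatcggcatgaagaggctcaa
CELF5: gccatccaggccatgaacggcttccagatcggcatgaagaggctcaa
CELF6: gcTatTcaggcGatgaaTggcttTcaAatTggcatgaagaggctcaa
CELF1 differs from CELF4 at 5 of these bases, CELF2 at 10, CELF3 at 3 and CELF6 at 7, and all 6 stretches lie near the end of the coding sequence (bases 1456 to 1502 of 1545 in CELF1).

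Total gene counts were between 39325038 and 44839748 in 3 libraries and 944993 in control replicate 1, in which a single count is worth 1.06 CPM, the count after scaling each library to the same total. Markers of dividing cells, 20 genes, summed to 112 and 122 CPM in CRISPRi and to 649 and 121 CPM in control replicates 1 and 2. Markers of excitatory neurons, 10 genes, summed to 11721 and 11712 CPM in CRISPRi and to 10067 and 11567 CPM in controls, and all 10 had counts in every library. Summed markers of astrocyte and oligodendrocyte lineages were at 29.5 to 33.5 CPM, those of pluripotent cells at 17.99 to 22.9 CPM, and those of mesenchymal cells at 215 and 238 CPM in CRISPRi libraries, against 294 and 211 CPM in controls. Of the 6 pluripotent markers TDGF1 was at 0 in every library. VIM made up most of the mesenchymal sum, at 133 and 141 CPM in CRISPRi against 217 and 119 CPM in controls. In control replicate 1 VIM and TAGLN were highest of the libraries, while COL1A1, COL1A2, COL3A1, ACTA2, DCN and LUM were lowest. DCN and LUM had 0 counts there and were at most 0.43 and 1.63 CPM elsewhere, so their place is set by the depth. COL1A2 rests on 6 counts in that library. Control replicate 1 therefore stands apart in depth and in dividing-cell markers, and the members are given with and without it. Fewer cells of a type and less RNA per cell cannot be told apart in such bulk libraries.

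CELF1 did not differ between CRISPRi and control neurons beyond the spread of the replicates. The CRISPRi libraries held 4780 and 4291 CELF1 counts, against 74 and 4515 in the controls, replicate 1 first. On the CPM scale these are 107 and 103 in CRISPRi, against 78.3 (exact Poisson 95% interval 61.5 to 98.3) and 115 (111 to 118) in controls. The controls thus lie on either side of the CRISPRi libraries, and the groups overlap. Mean levels were 105 ± 2.37 CPM in CRISPRi libraries, against 96.6 ± 25.8 CPM in controls (SD, n = 2 each). The log2 fold change was 0.03, with a 95% confidence interval of -0.36 to 0.42, by edgeR's quasi-likelihood test (adjusted p = 1, rounded). A change by a factor of 2 in either direction lies outside this interval. Its size was small among the tested genes, of which 16.2% had a smaller absolute log2 fold change.

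The direction of CELF1 depended on the control used. Without control replicate 1, in 2 libraries against 1, the log2 fold change was negative (-0.12). Without control replicate 2 it was positive (0.45), against control replicate 1 alone, which held 74 CELF1 counts. Neither passed the threshold of 0.05. All 6 members had a negative log2 fold change without control replicate 1, from -0.16 for CELF2 to -0.0021 for CELF4, and 0 of them passed, where 0.659% of tested genes did.

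**Figure D1:**
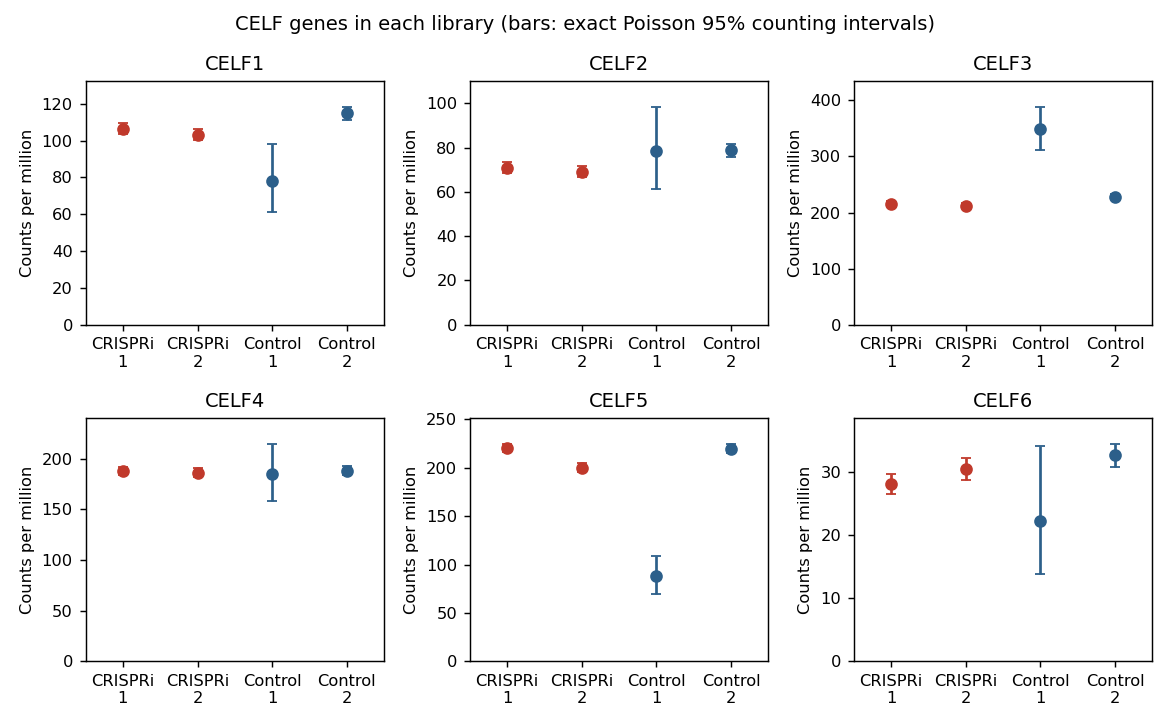
CPM (vertical axes, starting at 0) of the 6 CELF genes in each library, CRISPRi in red and control in blue, with exact Poisson 95% counting intervals. Control replicate 1 has the widest intervals, lies above the other 3 libraries for CELF3 (348 CPM) and lies below them for CELF1 (78.3 CPM), CELF5 (87.8 CPM), CELF6 (22.2 CPM) and, by a narrow margin, CELF4 (185 CPM).

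None of the 6 members passed the test, where 0.0255% of 15708 tested genes were called lower and 0% higher. By edgeR the unadjusted p was under 0.05 for 0 of 6, and for 151 of all 15708 genes. Neither DESeq2 nor limma-voom called any of the 6, where they called 0.0764% and 0.0127% of genes, and each gave 1 member an unadjusted p under 0.05 (CELF3 by DESeq2, CELF2 by limma-voom), as they did for 148 and 266 of the 15708 genes. Leaving out CRISPRi replicate 1 or 2 gave 0 calls of 6, with 0.106% and 0.206% of genes called, and leaving out control replicate 2 gave 2 calls of 6, with 8.58% of genes called. All 6 passed the filter on low counts. Of the members 3 had a positive and 3 a negative log2 fold change, and their median was -0.01, against 0.01 over all tested genes.

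CELF2, the broadly expressed relative closest to CELF1 in sequence, had lower levels in both CRISPRi libraries, a difference that did not pass the test. It had 3181 and 2871 counts in CRISPRi libraries, against 74 and 3097 in controls, which are 70.9 and 69.1 CPM in CRISPRi against 78.3 and 78.8 CPM in controls. On the CPM scale both CRISPRi libraries lie below both controls. In FPKM the groups overlap, at 9.27 and 9.42 in CRISPRi against 9.27 and 9.74 in controls. The length implied by counts and FPKM was 7655 and 7330 bp in CRISPRi, against 8451 and 8087 bp in controls. As this length differed between the groups, FPKM is not a separate check on the CPM difference. The log2 fold change was -0.16, with an interval of -0.34 to 0.03 (unadjusted p = 0.0847, adjusted p = 1, rounded, by edgeR). It ran from -0.17 to -0.13 with each library left out in turn, and was -0.16 without control replicate 1 (edgeR adjusted p = 0.779). With the deep libraries thinned to the depth of control replicate 1 it was -0.03. The counting interval in control replicate 1 (61.5 to 98.3 CPM) covers both CRISPRi values.

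CELF3, a neural splicing regulator, was the other member whose groups did not overlap in CPM. It had 9685 and 8804 counts in CRISPRi libraries, against 329 and 8979 in controls, which are 216 and 212 CPM in CRISPRi against 348 and 228 CPM in controls. Groups that do not overlap were common, since 34.3% of all tested genes had none (17.8% higher and 16.5% lower in CRISPRi). The log2 fold change of CELF3 was -0.37 (interval -0.85 to 0.11, edgeR adjusted p = 1, rounded), and it rested on control replicate 1, since it was -0.09 without that library. Without control replicate 2 it was -0.67 and passed (edgeR adjusted p = 0.00124), in a comparison that holds control replicate 1 alone.

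CELF4, which in mice restrains neuronal excitability and seizures, was the steadiest member. It had 8429 and 7741 counts in CRISPRi libraries, against 175 and 7399 in controls, which are 188 and 186 CPM in CRISPRi against 185 and 188 CPM in controls. All 4 libraries lie within 3 CPM of each other, and the log2 fold change was 0.02 (interval -0.16 to 0.19, edgeR adjusted p = 1, rounded), or -0.0021 without control replicate 1.

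CELF5, a brain-enriched member, varied most between the controls. It had 9875 and 8314 counts in CRISPRi libraries, against 83 and 8625 in controls, which are 220.2 and 200.05 CPM in CRISPRi against 87.8 and 219 CPM in controls. The counting interval in control replicate 1, 70.0 to 109 CPM, lies far below the other 3 libraries. The log2 fold change was 0.33 with an interval of -0.74 to 1.39 (edgeR adjusted p = 1, rounded), which leaves room for a doubling. Its sign turned without control replicate 1 (-0.06). Without control replicate 2 the value was 1.29 and passed (edgeR adjusted p = 0.00207), again against control replicate 1 alone.

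CELF6, which is studied in mice for its part in behaviour, had the lowest counts of the family. It had 1254 and 1263 counts in CRISPRi libraries, against 21 and 1280 in controls, which are 28.0 and 30.4 CPM in CRISPRi against 22.2 (interval 13.8 to 34.0) and 32.5 CPM in controls. The groups overlap, and the log2 fold change was -0.04 (interval -0.45 to 0.37, edgeR adjusted p = 1, rounded). Its sign depended on the libraries, at -0.15 without control replicate 1, 0.42 without control replicate 2 and 0.10 without CRISPRi replicate 1. GENCODE places further coding gene models on the same strand over CELF6, AC009690.1 and AC009690.3, which share 86.4% of its 75-base stretches with it. Neither is among the deposited symbols, so the CELF6 counts could include their reads.

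**Figure D2:**
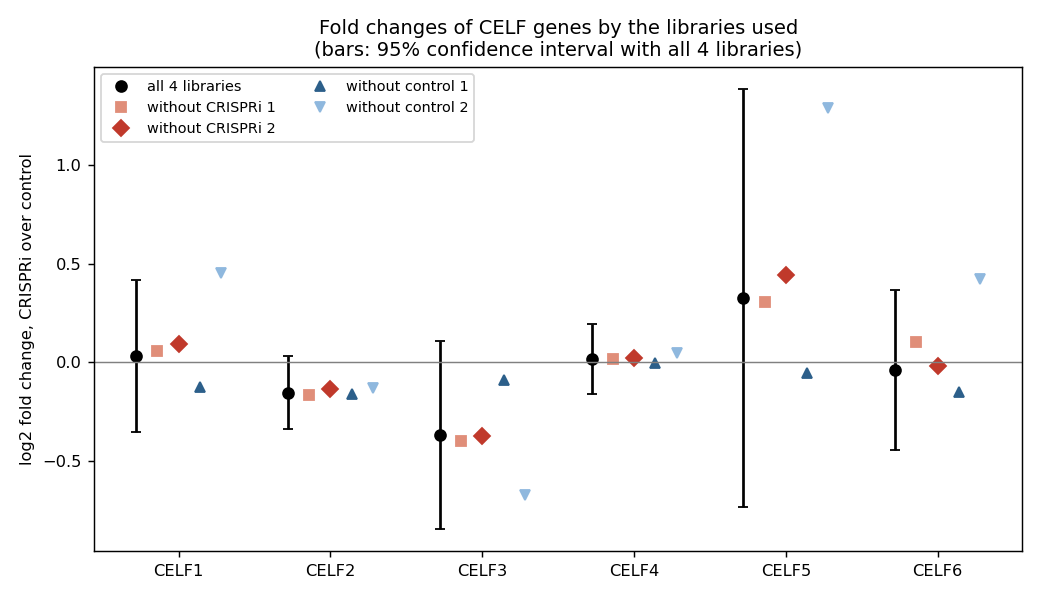
Log2 fold change of each CELF gene, CRISPRi over control (vertical axis), with all 4 libraries (black, with 95% confidence interval) and with each library left out. The values without control replicate 2 stand apart for CELF1 (0.45), CELF3 (-0.67), CELF5 (1.29) and CELF6 (0.42), while those without control replicate 1 lie between -0.16 and -0.0021 for all 6 genes.

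Set against its paralogs within each library, where the scaling of libraries cancels, CELF1 did not differ in CRISPRi neurons beyond the spread of the controls. The counts of CELF1 divided by the summed counts of the other 5 genes gave 0.147 and 0.148 in CRISPRi libraries, against 0.109 (replicate 1) and 0.154 (replicate 2) in controls. The CRISPRi libraries lie between the controls. On the log2 scale the mean ratio was -2.76 ± 0.004 in CRISPRi and -2.95 ± 0.36 in controls (SD, n = 2 each), a difference of 0.19 with an exact two-sided permutation p of 1. With 2 libraries against 2 that test cannot give a p below 0.333. Without control replicate 1 the difference was -0.06, and without control replicate 2 it was 0.45. Against single paralogs the difference was 0.54 over CELF3, 0.14 over CELF4 and 0.03 over CELF6, with overlapping groups. Over CELF2 the groups did not overlap, with ratios of 1.503 and 1.495 in CRISPRi against 1.00 and 1.46 in controls (difference 0.31). Over CELF5 they did not overlap either, in the opposite direction, with ratios of 0.484 and 0.516 in CRISPRi against 0.892 and 0.523 in controls (difference -0.45). The exact permutation p was 0.333 for both, the smallest this design allows.

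The make-up of the family was nearly the same in the 3 deep libraries and different in control replicate 1. CELF1 made up 12.8% and 12.9% of the family's counts in CRISPRi, and 9.79% (exact binomial 95% interval 7.76% to 12.1%) and 13.3% in controls. CELF3 made up 26.0% and 26.5% in CRISPRi, against 43.5% and 26.5% in controls. CELF5 made up 26.5% and 24.98% in CRISPRi, against 10.98% and 25.4% in controls. The ratio of CELF3 to CELF5 counts was 0.981 and 1.06 in CRISPRi, and 3.96 (interval 3.11 to 5.11) and 1.04 in controls. Control replicate 1 therefore departs from the other 3 libraries by more than counting error at these genes. The summed level of the family differed less, at 830 and 801 CPM in CRISPRi libraries, against 800.0 and 862 CPM in controls. The dividing-cell markers given above were highest in the same library, and their part in the CELF3 and CELF5 values was not tested.

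**Figure D3:**
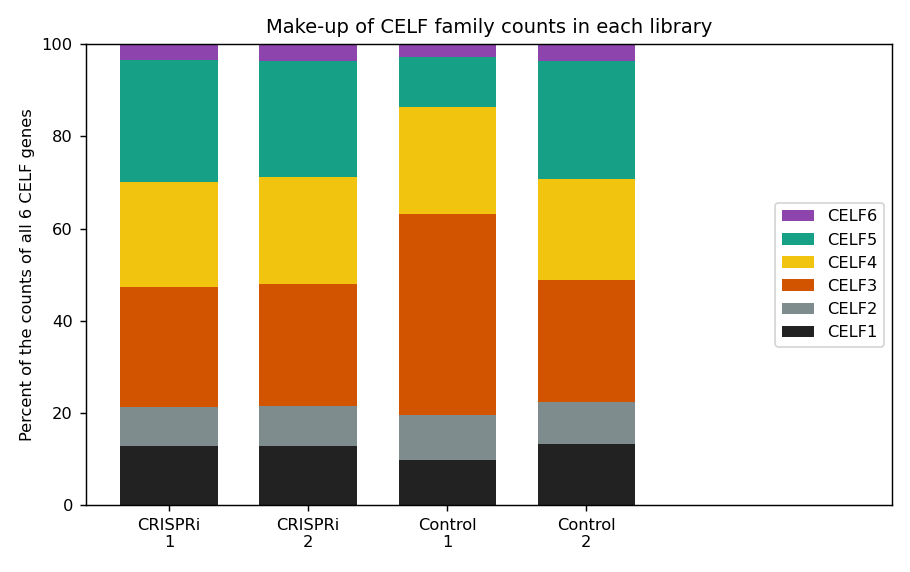
Share of each gene in the counts of all 6 CELF genes (vertical axis, percent) in the CRISPRi and control libraries. CELF3 takes 43.5% and CELF5 10.98% in control replicate 1, against 26.0% to 26.5% and 24.98% to 26.5% in the other 3 libraries.

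Per unit of length CELF4, CELF5 and CELF3 led the family, while CELF6, the other neural member, was lowest together with CELF2. The deposited values, computed by the authors, are unlabelled and were taken as FPKM, which by definition scales counts by gene length and library total. The length behind them was not constant between libraries, as given below for CELF5. They averaged 48.5 ± 0.456 for CELF4, 47.5 ± 7.12 for CELF5 and 43.6 ± 11.1 for CELF3 (SD, n = 4 libraries). CELF1 followed at 15.04 ± 2.45, then CELF2 at 9.42 ± 0.222 and CELF6 at 8.94 ± 1.69 (SD, n = 4 libraries). The step from CELF3 to CELF1 was 2.90-fold and that from CELF1 to CELF2 1.60-fold. In FPKM both held in all 4 libraries, with ranges that do not overlap. In control replicate 1, however, CELF1 and CELF2 had 74 counts each. Their order in that library rests on the lengths implied by counts and FPKM (6700 and 8451 bp). Over all 4 libraries CELF4, CELF5 and CELF3 did not differ in order beyond their spread, nor did CELF2 and CELF6. In deep libraries alone CELF5 averaged 50.9 ± 2.57 FPKM, CELF4 48.8 ± 0.2 FPKM and CELF3 38.1 ± 1.39 FPKM (SD, n = 3). CELF3, at most 39.6 FPKM in the deep libraries, lay below CELF4 (at least 48.5 FPKM) and CELF5 (at least 48.0 FPKM) without overlap. There CELF6 averaged 9.73 ± 0.688 FPKM and CELF2 9.48 ± 0.240 FPKM (SD, n = 3). Among 12754 tested genes with an FPKM above 0 in every library, CELF4 stood above 89.2% to 89.9% and CELF1 above 58.6% to 70.9%.

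CELF1 FPKM was 16.1 and 14.96 in CRISPRi and 11.7 and 17.4 in controls, the same order of libraries as on the CPM scale. For CELF5 the scales differ. Its FPKM was 52.8 and 48.0 in CRISPRi and 37.4 and 52.0 in controls, a smaller gap for control replicate 1 than in CPM. Dividing its counts by its FPKM and the library total gives an effective length of 4167 and 4166 bp in CRISPRi, and of 2351 and 4219 bp in controls. For CELF1 the same quotient stayed between 6604 and 6904 bp. The length behind the CELF5 value of control replicate 1 was therefore not that of the other libraries. The order of CELF3 depends on the length used: with CPM per kilobase of the longest GENCODE transcript, an alternative chosen after seeing the data, CELF3 came first at 77.3 ± 20.1, ahead of CELF4 at 46.1 ± 0.351 and CELF5 at 42.6 ± 14.8 (SD, n = 4 libraries), while CELF1, CELF2 and CELF6 kept their ranks.

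**Figure D4:**
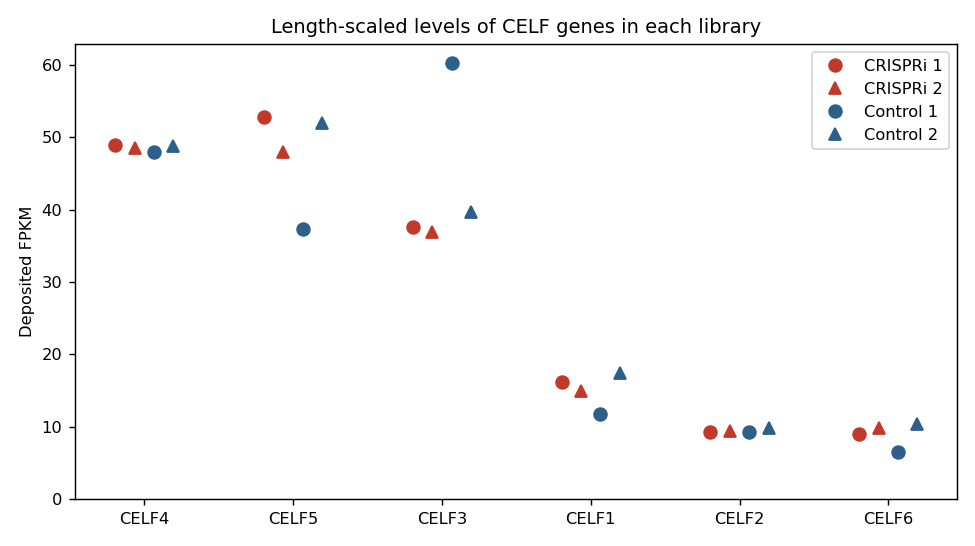
Deposited FPKM (vertical axis, starting at 0) of the CELF genes in each library, ordered by their mean, CRISPRi in red and control in blue. CELF3, CELF4 and CELF5 lie between 36.9 and 60.2 FPKM in every library, and CELF1, CELF2 and CELF6 between 6.55 and 17.4 FPKM.

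Around the element, CELF1 holds a particular place in the deposited tables. GENCODE lists 13 coding genes within 200 kb of the labelled intervals, of which 10 were tested. CELF1 is the nearest of them that is listed on chromosome 11 itself. The 9 genes from NDUFS3 to NUP160, among them C1QTNF4 and MTCH2 on either side of the element, are listed only on a fix contig, a patch sequence for part of the reference chromosome. Their deposited FPKM is 0 in every library although 7 of them had counts enough to be tested. Most rows with a count but an FPKM of 0 lay on alternate or fix contigs, 947 of 954 in CRISPRi replicate 1 and 595 of 602 in control replicate 1. PTPMT1, a mitochondrial phosphatase that starts head to head with CELF1, is represented by only 1287 bp there, while its GENCODE extent overlaps that of CELF1 by 140 bp. The counts do not show how reads from the chromosome copy of this region were handled.

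Log2 fold changes of the 10 tested genes ran from -0.22 for the zinc transporter SLC39A13 to 0.13 for KBTBD4, with CELF1 at 0.03, and 0 passed by edgeR. The SLC39A13 value turned to 0.14 without control replicate 1 and was -1.05 without control replicate 2. GENCODE transcripts of CELF1 share 160 of their 11451 distinct 75-base stretches with models of NDUFS3, and 66 with models of PTPMT1, on the opposite strand. That is 1.40% of the CELF1 stretches. No source states whether counting used strand, so reads from that overlap cannot be assigned.

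**Figure D5:**
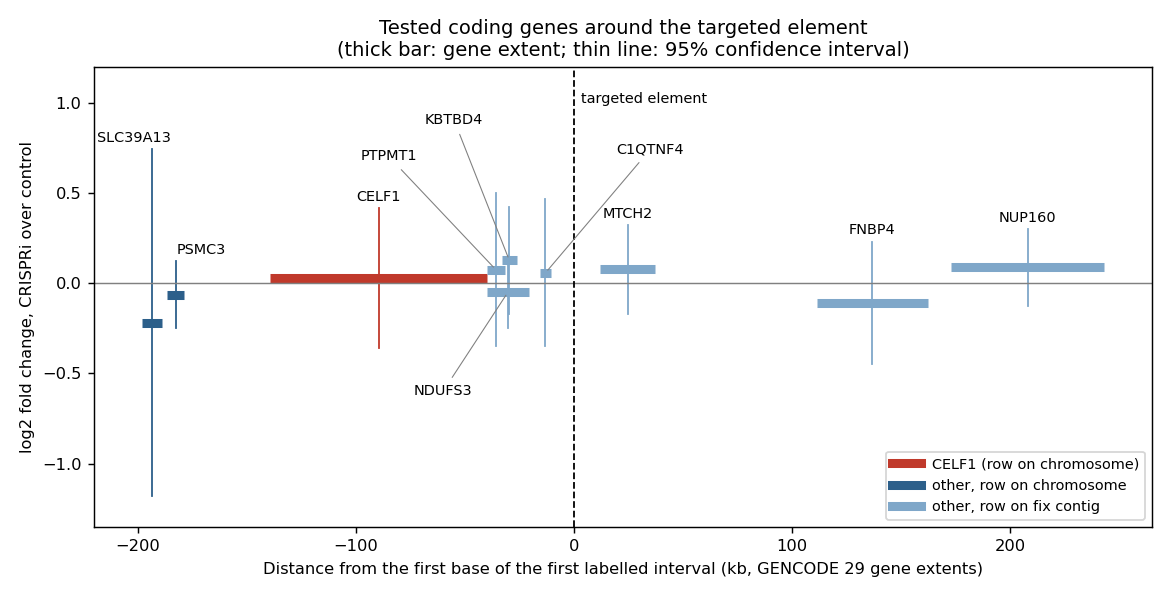
Log2 fold change, CRISPRi over control (vertical axis), of tested coding genes against their distance in kb from the first base of the first labelled interval (dashed line). Thick bars are gene extents and thin lines 95% confidence intervals. All 10 intervals include 0, and genes in pale blue are listed on the fix contig only.

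Other genes of CELF biology were described in 7 lists, with 84 genes in all and 76 tested. By edgeR 0 of the 76 passed and DESeq2 called 0. The unadjusted edgeR p was under 0.05 for 1 of the 76, near the share over all genes (151 of 15708). List medians lay between -0.05 and 0.06 in log2 fold change, against 0.01 over all tested genes. In the list of CUG-repeat partners, 0 of 4 passed (median -0.05). MBNL1, the splicing factor that acts against CELF1, was at 2.32 and 2.35 FPKM in CRISPRi libraries, against 4.48 and 2.42 FPKM in controls, below CELF1 in every library. Its log2 fold change was -0.28, or -0.05 without control replicate 1. DMPK, whose expanded repeat causes myotonic dystrophy, was at 10.8 and 10.3 FPKM in CRISPRi libraries, against 12.7 and 11.15 FPKM in controls (log2 fold change -0.11, or -0.07 without control replicate 1).

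In the list of CELF1 kinases and cyclin partners, 0 of 8 passed (median -0.0041). PRKCB, a protein kinase C, had the lowest p, at 173 and 169 CPM in CRISPRi libraries, against 130.2 and 168 CPM in controls (log2 fold change 0.16, or 0.03 without control replicate 1). Among deadenylation and decay factors, the machinery through which CELF1 shortens poly(A) tails, 0 of 18 passed (median -0.04). CNOT7, a catalytic deadenylase, was at 143 and 138 CPM in CRISPRi libraries, against 139 and 93.8 CPM in controls. Its log2 fold change was 0.39 (edgeR adjusted p = 1, rounded), and 0.59 without control replicate 1, where it passed (edgeR adjusted p = 0.00399). Control replicate 1 lies with the CRISPRi libraries here, so the difference rests on control replicate 2.

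Among other binders of GU-rich or U-rich RNA 0 of 11 passed (median -0.04), and the neuronal ELAV protein ELAVL2 had the lowest p, at 447 and 432 CPM in CRISPRi libraries, against 368 and 413 CPM in controls (log2 fold change 0.18, or 0.097 without control replicate 1). Of other neuronal splicing regulators 0 of 9 passed (median 0.06). NOVA1, a brain splicing factor, had the lowest p of its list (edgeR unadjusted p = 0.0441, adjusted p = 1, rounded). It was at 109.6 and 104 CPM in CRISPRi libraries, against 104 and 60.4 CPM in controls, and its log2 fold change was 0.59 with an interval of 0.02 to 1.16. Without control replicate 1 it was 0.83 and passed (edgeR adjusted p = 0.00147), while control replicate 1 again lies with the CRISPRi libraries.

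Known targets of CELF proteins numbered 14 tested of 17, and 0 passed (median -0.03). CEBPB, a transcription factor whose translation CELF1 affects, had the lowest p, at 3.88 and 4.04 CPM in CRISPRi libraries, against 10.6 and 4.93 CPM in controls (log2 fold change -0.62, or -0.31 without control replicate 1). MAPT, which encodes tau and is spliced by CELF proteins, was at 1005 and 1003 CPM in CRISPRi libraries, against 870 and 1031 CPM in controls (log2 fold change 0.09, or -0.03 without control replicate 1). Gene counts do not show exon use, so the splicing of these targets was not measured. Of the neighbours of CELF1 on its chromosome band 0 of 12 passed (median 0.04), and KBTBD4, which had the lowest p, was at 23.5 and 24.0 CPM in CRISPRi libraries, against 22.2 and 21.9 CPM in controls.

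The genes whose pattern over the 4 libraries was most like that of CELF1 were RRP9, TET2, GRM2, RNF165 and FBXL7. Likeness was the Euclidean distance between log2 CPM values centred on each gene's mean, over 7976 other genes with a mean of at least 20 CPM, and the 5 distances ran from 0.022 to 0.051. RRP9, a protein of the U3 small nucleolar ribonucleoprotein, was at 27.5 and 26.4 CPM in CRISPRi libraries, against 20.1 and 30.0 CPM in controls, lowest in control replicate 1 as CELF1 was. All 5 genes were lowest in control replicate 1, where a single count is worth 1.06 CPM. Their values there carry wide counting error, which the distances do not take into account. Among the paralogs CELF6, with 21 counts in that library, ranked 187 of 7976 by this distance, and CELF4 3562, CELF2 4754, CELF5 6605 and CELF3 7512.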

How the data were processed

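Each deposited file gives, by gene row, read counts that are whole numbers and a value taken as FPKM, both made by the authors. The build, hg38, and the use of edgeR and limma are stated per the submitters' processing notes; aligner, counter and strand use are not given in the sources used here. For testing, counts were summed by symbol over all rows, including other contigs (5.08% to 5.15% of counts), and FPKM served only to compare levels between genes.

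Groups were tested with edgeR 4.0.16 (R 4.3.3): filterByExpr, TMM, the robust quasi-likelihood test with group alone, and Benjamini-Hochberg adjustment over 15708 genes at 0.05. Intervals of 95% for fold changes came from its F statistic, and counting intervals cover counting error only. For genes of low spread edgeR limits p from below by a Poisson test. Ratios of CELF1 to paralogs were tested by exact two-sided permutation. The procedure was tested on simulated data. Transcript overlaps and coding identity (Biopython 1.88) used GENCODE release 29.

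Genes named were the members, the gene with the lowest p in each list and any past the threshold with all 4 libraries, and the 5 genes most like CELF1. Genes beside the element, the mesenchymal markers, DMPK, MAPT and TDGF1 were named after their values were seen. List genes that passed only with a library left out are counted, not named, apart from those above. Members and lists were chosen with earlier results of these data known. Alternatives were DESeq2 1.42.0, limma-voom (limma 3.58.1), other scalings and filters, a replicate block, each library left out, primary chromosomes only and thinned deep libraries.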

Additional observations from a re-analysis of the deposited data

How the results depend on the processing

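Of 78 member values under alternatives, 66 held their sign and call, 10 turned sign and 2 gained a call; the cause was not tested. CELF1 (0.03) was -0.090 with limma-voom, and -0.12 to 0.45 across leave-one-out fits. CELF4 (0.02) was -0.0033 with thinned deep libraries, and -0.0021 to 0.045 across leave-one-out fits. CELF6 (-0.04) was 0.022 by DESeq2, 0.27 with thinned libraries and 0.068 under the replicate block, and leave-one-out values spanned -0.15 to 0.42. Leave-one-out values spanned -0.67 to -0.088 for CELF3 and -0.056 to 1.29 for CELF5. CELF2 was negative under all 13 alternatives, and smallest in size (-0.030) with thinned libraries. The number of CELF genes called was 0, and 0 to 2 when 1 library was omitted. The ratio of CELF1 to its paralogs (0.19) was -0.45 over CELF5 alone, and -0.057 to 0.45 when 1 library was omitted. Genes called higher (0) numbered 1 by DESeq2, 17 under the replicate block and 2 to 580 with 1 library omitted. Genes called lower (4) numbered 11 by DESeq2, 25 under the replicate block, 2 by limma-voom, 7 with thinned libraries and 15 to 798 with 1 library omitted. List calls under omission spanned 0 to 1 (CUG-repeat partners, decay, neuronal splicing), 0 to 3 (kinases, CELF targets) and 0 to 4 (other binders), and were 0 for neighbours; without control replicate 2, 8.58% of all genes were called. CELF1 made up 8.68% of summed family FPKM, and 6.68% by CPM per kilobase of transcript, chosen after seeing the data. Replicate numbers are not tied to a shared batch in the labels, so the block has no stated basis. Deviations from group means correlated at -0.027 between replicates numbered 1. That value cannot decide whether a batch was shared, since the control deviations carry the low depth of control replicate 1. Using the longest deposited row as length was not run, as each member has 1 row. A lone library was assumed to vary like the other group. Depth limits CELF6 most, with 21 counts in control replicate 1.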
